A study of Mus musculus with 2 samples.

Results

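Of the 37315 genes listed for subcutaneous (inguinal) white fat of obese mice, 46 belong to the machinery that shows antigens to T cells. They were taken by name: every protein-coding gene whose symbol begins with H2-, the prefix of the mouse major histocompatibility complex (MHC), and 12 partner genes (B2m, Cd74, Ciita, Nlrc5, Tap1, Tap2, Tapbp, Psmb8, Psmb9, Psmb10, Erap1 and Cd1d1). They comprised 24 class I heavy chain genes, 9 class II chain genes, the 12 partners and H2-Ke6, which carries the prefix but belongs to neither class. On the mm10 genome, 39 of the 46 lie on chromosome 17.

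The fat came from C57BL/6 male mice, 23 weeks old, made obese by a high-fat diet, and the groups were vehicle and entacapone, with 1 library each. Both groups shared the strain, sex, age and diet and differed in the treatment alone as far as the labels go. Entacapone is a drug for Parkinson disease that blocks catechol-O-methyltransferase, and it has been described to inhibit FTO, an RNA demethylase. The sources used give neither the dose and duration nor how many mice went into a library.

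Class I molecules stand on almost every nucleated cell. A heavy chain pairs with the light chain B2m and holds a peptide that the proteasome cut in the cytosol and the TAP pump carried into the endoplasmic reticulum. Class II molecules stand mainly on professional antigen-presenting cells such as dendritic cells, B cells and macrophages, and hold peptides from engulfed proteins. The invariant chain Cd74 blocks the class II groove until endosomal proteases remove it, after which H2-DM helps exchange its last fragment for a peptide and H2-O restrains H2-DM. In fat, tissue macrophages and dendritic cells carry class II, and adipocytes have been reported to carry some of it in obesity.

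The vehicle library held 13620056 counted reads and the entacapone library 12979673. Levels are given as CPM (read counts scaled to a common library size) with TMM-scaled library sizes, and as CPM per kilobase of exon where genes are compared with each other. Each group held 1 library, which leaves no replicate error and no test, so each ratio (entacapone over vehicle) is followed by its exact 95% Clopper-Pearson interval, which covers counting error only. A gene is called higher or lower where that interval excludes 1, and such a call separates these 2 libraries, not the treatments. All 7 adipocyte markers were measured in both libraries, with Adipoq at 2867 and 3118 CPM. Markers of other tissues also differed: the summed level of 8 hepatocyte markers was 340.8 CPM with vehicle and 80.9 CPM with entacapone, that of 7 skeletal muscle markers 1202 and 1825 CPM, and that of 7 epithelial markers 16.1 and 49.9 CPM. The part of these differences in the results below was not tested.

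Most of the antigen presentation genes with usable counts were at lower level in the entacapone library. Of the 46, 31 were measured (mean level of 1 CPM or more). Of these 31, 17 were lower (54.8%), against 21.1% of all 13361 measured genes, and 3 were higher (9.68%), against 20.2% of all measured genes. The 3 were Cd1d1, H2-Q10 and Nlrc5, and the other 11 lay within counting error. Deep counts make such calls easier, and the members are deeply counted: among the 4709 genes with at least 1000 reads over both libraries, 25.3% were lower and 33.9% higher, and among the 22 members with as many reads, 15 were lower and 3 higher. Most differences were small. At 1.5-fold or more, 4 members were lower (H2-Aa, H2-Eb1, H2-DMb1 and Ciita), against 7.9% of all measured genes, and at 2-fold or more 1 was (Ciita), against 3.5%. The median log2 ratio of all measured genes was 0.00. These shares and this median of all genes are the ones to set beside the counts and medians of every list below. In bulk tissue, fewer cells of a type and less RNA per cell cannot be told apart, and this holds for every ratio below.

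**Figure D1:**
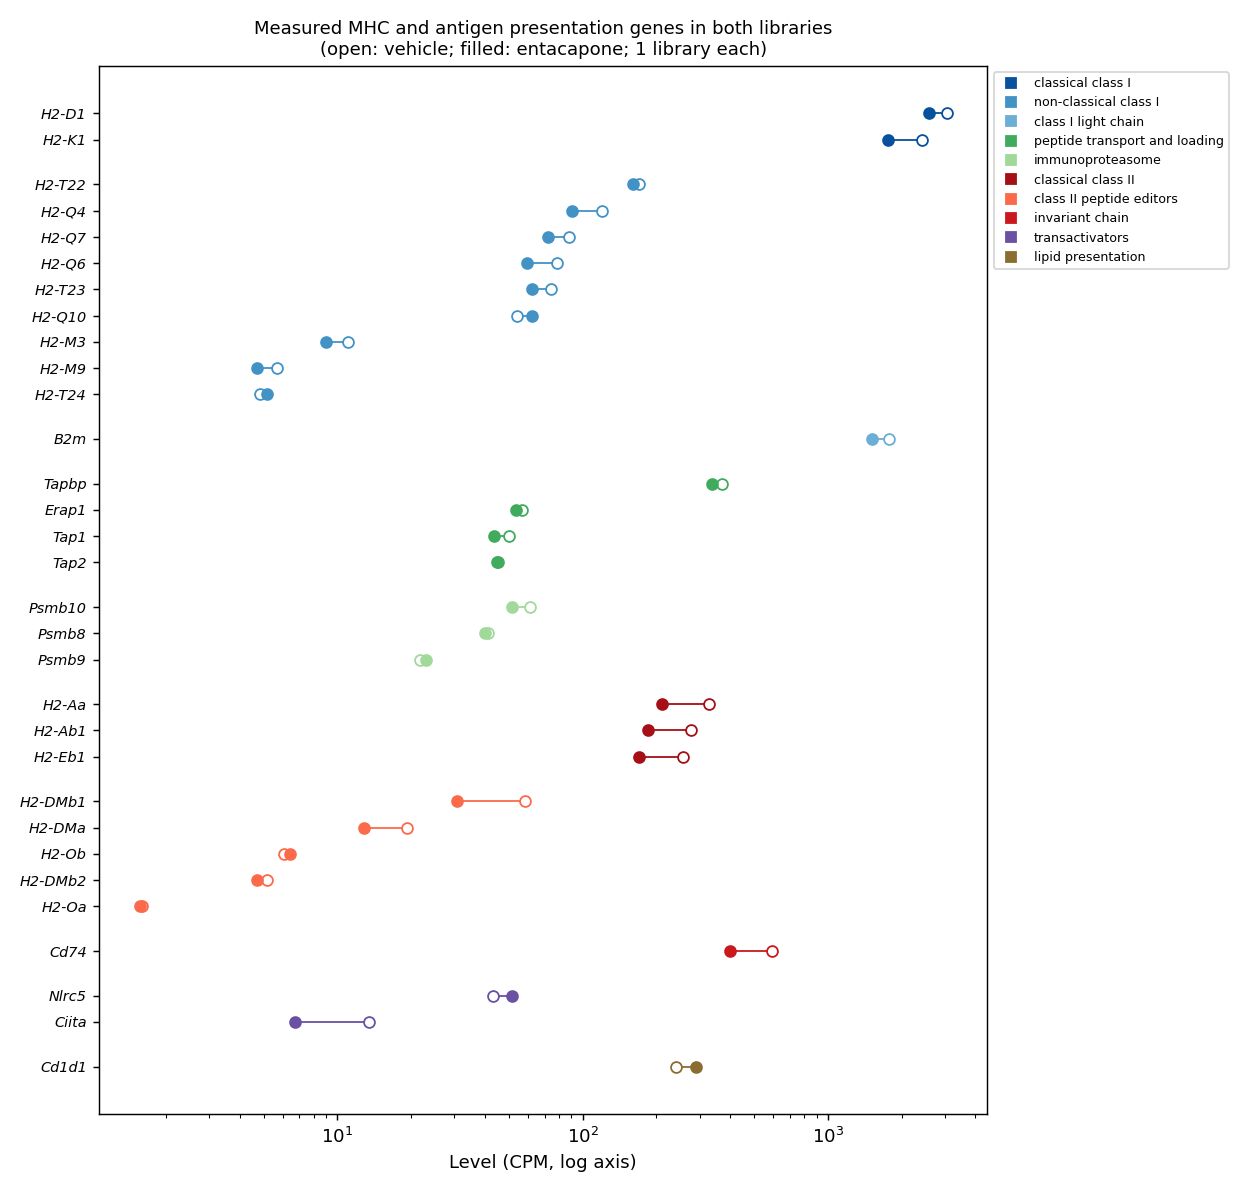
Level in CPM (log axis) of each of the 31 measured genes in the vehicle library (open circles) and the entacapone library (filled circles), coloured by role, with 1 library per group and no replicates. H2-D1, H2-K1 and B2m lie far to the right of the other genes in both libraries, and for 25 of the 31 genes the filled circle lies to the left of the open one.

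The other 15 members were not measured. The 6 H2-M10 genes (H2-M10.1 to H2-M10.6), H2-M11 and H2-T3 had 0 reads in both libraries, where a count of 0 allows a level of up to 0.217 CPM with vehicle and 0.234 CPM with entacapone. H2-M10 molecules are known from the sensory neurons of the vomeronasal organ and H2-T3 from the intestinal epithelium. A few reads fell on H2-Eb2 (15 and 11 reads in the vehicle and entacapone libraries) and H2-M2 (12 and 9 reads). H2-Ke6, H2-M1, H2-M5, H2-Q1 and H2-Q2 had at most 3 reads in either library. Of the 101-base windows of H2-Ke6 transcripts, 42.4% also occur in a transcript of Gm20427, and how reads from them were counted is not given.

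The promoters of the main class I genes are shown first. Those of H2-K1 and H2-D1 carry some sequence features present in more of the class I than of the class II genes searched. H2-K1 and H2-D1 encode the classical heavy chains that present peptides to cytotoxic T cells, and B2m encodes the light chain that every class I heavy chain needs. The sequences are the 200 bases before the RefSeq transcription start (build GRCm38.p6, 5′ to 3′ on the gene's strand), at chr17:34000334-34000533 on the minus strand for H2-K1, chr17:35262894-35263093 on the plus strand for H2-D1 and chr2:122147487-122147686 on the plus strand for B2m. Capitals mark GGGATTCCC (the enhancer A site, a place where NF-kB family factors are known to bind class I promoters), AAGTGAAA (an interferon response half-site, here as its reverse complement TTTCACTT) and CCAAT (the NF-Y box, also as its reverse complement ATTGG).
H2-K1: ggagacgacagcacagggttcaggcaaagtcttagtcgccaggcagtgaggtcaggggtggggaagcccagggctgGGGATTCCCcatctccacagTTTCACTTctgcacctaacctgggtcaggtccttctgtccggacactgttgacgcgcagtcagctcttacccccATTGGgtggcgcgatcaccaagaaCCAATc
H2-D1: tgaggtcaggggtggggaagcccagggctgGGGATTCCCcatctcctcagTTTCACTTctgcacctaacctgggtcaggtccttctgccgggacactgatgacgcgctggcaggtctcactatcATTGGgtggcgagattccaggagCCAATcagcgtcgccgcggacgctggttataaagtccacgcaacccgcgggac
B2m: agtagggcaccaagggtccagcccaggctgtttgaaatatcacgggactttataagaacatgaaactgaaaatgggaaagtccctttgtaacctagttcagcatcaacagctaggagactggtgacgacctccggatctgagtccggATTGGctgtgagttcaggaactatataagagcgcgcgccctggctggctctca

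H2-K1 and H2-D1 hold the same features in the same order: GGGATTCCC, TTTCACTT, ATTGG and then CCAAT, with the starts of the last pair 24 bases apart in H2-K1 and 23 in H2-D1. Of these letters the B2m window holds ATTGG alone. RefSeq promoters of 300 bases (250 before to 50 after the start) were at hand for 38 of the 46 members, and each motif was searched on both strands, with no overlaps between matches. AAGTGAAA was present in 9 of 22 class I genes, in 0 of 8 class II genes and in 1.60% of all 32851 promoters. GGGATTCCC was present in 4 of 22 class I genes (H2-D1, H2-K1, H2-Q6 and H2-Q7), in 0 of 8 class II genes and in 0.353% of all promoters. ATTGG followed by CCAAT on the gene's own strand, 15 to 30 bases apart, was present in 8 of 22 class I genes, in 1 of 8 class II genes and in 0.980% of all promoters. CCAAT alone is common (37.4% of all promoters, 19 of 22 class I and 8 of 8 class II genes). The motifs and distances were chosen after the sequences were seen, and a match is a description of letters, not of a bound factor.

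The classical class I genes and B2m were lower in the entacapone library. H2-D1 (17:35262730-35267499) stood at 3061 CPM with vehicle and 2591 CPM with entacapone, a ratio of 0.846 (0.834 to 0.859). H2-K1 (17:33996017-34000347) stood at 2432 and 1769 CPM, a ratio of 0.727 (0.715 to 0.740). B2m stood at 1772 and 1516 CPM, a ratio of 0.856 (0.840 to 0.872). H2-K1 was lower by more than H2-D1: the reads of H2-K1 per read of H2-D1 went from 0.795 to 0.683, a change by a factor of 0.859 (0.841 to 0.879) that needs no scaling between libraries. Per kilobase of exon, B2m had the highest level of all members in both libraries (2060 and 1763 CPM per kb). H2-K1 came next in the vehicle library (1406 CPM per kb, with H2-D1 at 1357), and the order of the heavy chains was turned in the entacapone library (1023 for H2-K1 and 1149 for H2-D1).

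The non-classical class I genes were mixed. Of 22, 9 were measured, of which 4 were lower, 1 was higher and 4 lay within counting error, and their summed level was 607 CPM with vehicle and 528 CPM with entacapone (ratio 0.869, 0.841 to 0.897). H2-Q4, H2-Q6 and H2-Q7 belong to the Qa-2 region, whose products include heavy chains held by a lipid anchor. H2-Q4 was at 120.5 and 90.6 CPM, with a log2 ratio of -0.41 (-0.52 to -0.30). H2-Q6 was at 78.5 and 59.3 CPM (log2 ratio -0.41), and H2-Q7 at 88.0 and 72.2 CPM (log2 ratio -0.28), both lower. H2-T23 encodes Qa-1, which shows leader peptides of other class I chains to natural killer cells and was lower, at 74.1 and 62.4 CPM (log2 ratio -0.25).

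H2-Q10, whose product is a class I chain secreted mainly by the liver, was the only class I gene that was higher. It was at 54.1 CPM with vehicle and 62.4 CPM with entacapone, with a ratio of 1.15 (1.04 to 1.28). All 8 hepatocyte markers were lower in the entacapone library, with a median log2 ratio of -2.89. H2-Q10 and these markers differed in direction, and the part of liver RNA in the H2-Q10 reads was not tested. H2-T22, a ligand of some gamma delta T cells, was at 170 and 161 CPM and within counting error under the main scaling (log2 ratio -0.08, -0.16 to 0.01), but counted as lower with total-count and DESeq2 scaling. H2-M3, which presents formylated bacterial peptides, was at 11.0 and 8.99 CPM, H2-M9 at 5.65 and 4.69 CPM and H2-T24 at 4.85 and 5.16 CPM. These last 3 genes were within counting error, with few reads behind them and intervals that include no difference.

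Reads of near-identical class I genes can be split between copies or left uncounted. The sources used do not give the counting rule for such reads. Of the 101-base windows of H2-Q7 transcripts, 17.02% also occur in another gene's transcript, against 12.7% for H2-Q6, 13.8% for H2-Q4, 12.0% for H2-T22, 7.07% for H2-T23, 4.04% for H2-D1, 1.83% for H2-Q10 and 0% for H2-K1. The reads of H2-Q7 per read of H2-Q6 were 1.12 and 1.22, a change by a factor of 1.09 with an interval that includes 1 (0.956 to 1.24). A sum over all 24 heavy chain genes does not depend on how reads are split among them, but does not recover uncounted reads. Some shared windows lie in genes outside the 24, such as H2-T10 and H2-Q5, whose reads are not in the sum. In this sum class I was at 6101 and 4888 CPM, a ratio of 0.801 (0.793 to 0.810). The median log2 ratio of the 11 measured heavy chain genes was -0.25, with 6 lower, 1 higher and 4 within counting error. Against B2m, heavy chain reads went from 3.44 to 3.22 per B2m read, a change by a factor of 0.936 (0.916 to 0.957).

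**Figure D2:**
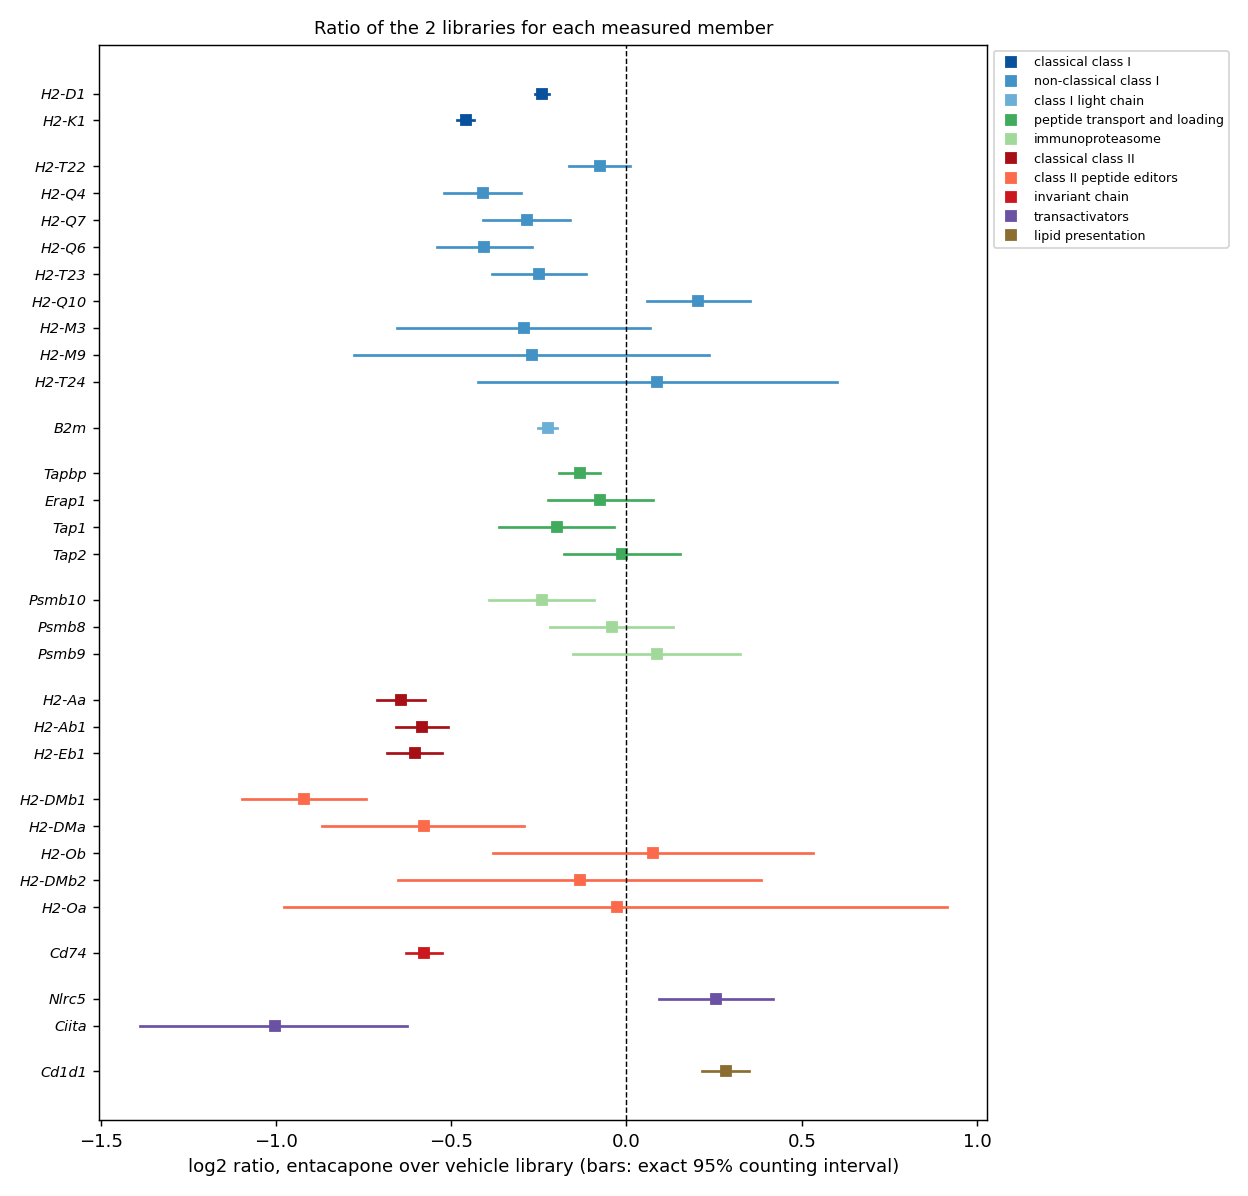
Log2 ratio of the entacapone over the vehicle library for each measured gene, grouped and coloured by role, with exact 95% counting intervals as bars and the dashed line at no difference. The 3 classical class II chains and Cd74 lie together between -0.64 and -0.58, most class I genes lie between -0.46 and 0, and Ciita, furthest to the left, and Nlrc5 at 0.26 lie on opposite sides of the line.

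The genes that supply peptides to class I stood closer to no difference than the heavy chains. Tapbp encodes tapasin, which holds empty class I molecules at the TAP pump. It was at 371 CPM with vehicle and 338 CPM with entacapone (ratio 0.911, 0.875 to 0.949). Tap1 and Tap2 encode the subunits of the pump itself. Tap1 was lower, at 49.9 and 43.4 CPM (ratio 0.871, 0.777 to 0.975), and Tap2 was at 45.3 and 44.9 CPM (ratio 0.991, 0.884 to 1.11). The reads of Tap1 per read of Tap2 changed by a factor of 0.879 with an interval that includes 1 (0.747 to 1.03), so the call for Tap1 alone does not set it apart from its partner. Erap1, the aminopeptidase that trims peptides in the endoplasmic reticulum, was within counting error at 56.5 and 53.6 CPM. The summed level of these 4 genes had a ratio of 0.919 (0.888 to 0.950).

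The immunoproteasome subunits replace the catalytic subunits of the standard proteasome and favour peptides that fit class I. Psmb10 was lower, at 61.1 and 51.6 CPM (ratio 0.845, 0.762 to 0.937). Psmb8 was within counting error at 41.1 and 39.9 CPM, and so was Psmb9 at 21.6 and 23.0 CPM. Psmb5, Psmb6 and Psmb7 encode the standard subunits, Pomp an assembly factor, and Psme1, Psme2 and Psme3 activators of proteasomes. Of these 7 measured genes, 5 were higher, 0 lower and 2 within counting error, with a median log2 ratio of 0.12. Among all genes with at least 1000 reads over both libraries, 33.9% were higher and 25.3% lower. The highest of the 7 were Psmb6 (0.25) and Psme1 (0.24) and the lowest Psme2 (-0.06) and Psme3 (0.04). Each immunoproteasome subunit can be set against the subunit it replaces within a library. The reads of Psmb10 per read of Psmb7 went from 0.479 to 0.372, a change by a factor of 0.777 (0.687 to 0.879), whereas the changes of Psmb8 per Psmb5 (0.877, 0.757 to 1.02) and of Psmb9 per Psmb6 (0.892, 0.745 to 1.07) had intervals that include 1.

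Chaperones that fold class I in the endoplasmic reticulum were lower, though they serve many other proteins too. Of 6 measured, 5 were lower and 0 higher, with a median log2 ratio of -0.22. The lowest were Hspa5, the general chaperone BiP (-0.35), and Tapbpl, the tapasin-like peptide editor (-0.29). Canx, calnexin, stood at -0.15 and Lnpep, a trimming aminopeptidase, at -0.08.

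The class II promoters are shown for a classical alpha chain (H2-Aa), a classical beta chain (H2-Eb1) and the beta chain of H2-O (H2-Ob), which differ in how their levels compared between the libraries. The sequences are again the 200 bases before the RefSeq start on GRCm38.p6, at chr17:34287824-34288023 on the minus strand for H2-Aa, chr17:34305667-34305866 on the plus strand for H2-Eb1 and chr17:34238705-34238904 on the plus strand for H2-Ob. Capitals mark GCAAC, letters found in the X box where RFX factors are known to bind class II promoters, and ATTGG or CCAAT, the NF-Y box known as the Y box in these promoters.
H2-Aa: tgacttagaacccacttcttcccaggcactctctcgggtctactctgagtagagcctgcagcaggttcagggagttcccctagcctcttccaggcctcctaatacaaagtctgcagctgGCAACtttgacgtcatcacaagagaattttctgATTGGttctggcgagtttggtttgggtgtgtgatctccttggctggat
H2-Eb1: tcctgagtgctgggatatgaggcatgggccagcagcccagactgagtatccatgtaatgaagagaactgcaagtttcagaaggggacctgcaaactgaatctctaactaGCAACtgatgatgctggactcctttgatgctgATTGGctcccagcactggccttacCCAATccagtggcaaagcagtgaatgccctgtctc
H2-Ob: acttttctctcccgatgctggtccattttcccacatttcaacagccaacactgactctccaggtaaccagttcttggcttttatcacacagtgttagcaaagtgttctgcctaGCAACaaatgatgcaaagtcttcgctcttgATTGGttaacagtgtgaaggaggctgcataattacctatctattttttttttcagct

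All of these promoters hold GCAAC followed by ATTGG on the gene's strand, with 33 bases between the starts of the motifs in H2-Aa, 32 in H2-Eb1 and 30 in H2-Ob. This order at a distance of 25 to 40 bases was present in 5 of 8 class II genes (H2-Aa, H2-Eb1, H2-Eb2, H2-Oa and H2-Ob), in 0 of 22 class I genes and in 0.390% of all promoters. The level of H2-Ob, unlike those of H2-Aa and H2-Eb1, was within counting error between the libraries, with 84 and 82 reads. The part of the pair in these levels was not tested.

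The class II genes were lower by more than the class I genes. H2-Aa and H2-Ab1 encode the alpha and beta chain of I-A, and H2-Eb1 encodes the beta chain of I-E, whose alpha chain gene is defective in C57BL/6 mice. H2-Aa (17:34282744-34287823) was at 329 CPM with vehicle and 210.5 CPM with entacapone, a ratio of 0.640 (0.610 to 0.672). H2-Ab1 (17:34257689-34269419) was at 277 and 185 CPM, a ratio of 0.667 (0.634 to 0.703). H2-Eb1 (17:34305867-34316674) was at 258 and 169.7 CPM, a ratio of 0.658 (0.623 to 0.694). The intervals of the 3 ratios overlap, and the reads of H2-Aa per read of H2-Ab1 (1.19 and 1.14) and of H2-Eb1 per read of H2-Ab1 (0.931 and 0.918) changed by factors whose intervals include 1.

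Cd74 had close to the ratio of the chains it accompanies. It was at 593 CPM with vehicle and 398 CPM with entacapone, a ratio of 0.670 (0.647 to 0.694), and per kilobase it came after B2m, H2-K1 and H2-D1 in both libraries, at 419 and 281 CPM per kb. The reads of Cd74 per class II chain read were 0.621 and 0.639, a change by a factor of 1.03 (0.983 to 1.08). Per read of H2-Ab1 they were 2.14 and 2.15, a change by a factor of 1.004 (0.944 to 1.07).

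The peptide editors did not share 1 ratio. H2-DMb1, the main beta chain of H2-DM, was at 58.1 CPM with vehicle and 30.7 CPM with entacapone, a ratio of 0.529 (0.468 to 0.597). H2-DMa, the alpha chain, was at 19.3 and 12.9 CPM, a ratio of 0.669 (0.548 to 0.816). The reads of H2-DMa per read of H2-DMb1 changed by a factor of 1.27, with an interval that just includes 1 (0.9996 to 1.60). Relative to the reads of H2-Aa, H2-Ab1 and H2-Eb1, those of H2-DMb1 changed by a factor of 0.808 (0.712 to 0.917), so H2-DMb1 was lower by more than the chains it edits. H2-DMb2, a second beta chain gene, was within counting error at 5.14 and 4.69 CPM, and so were the H2-O chains, H2-Ob at 6.08 and 6.41 CPM and H2-Oa at 1.59 and 1.56 CPM. H2-Oa rests on 42 reads in all, the fewest of any measured member, and its log2 interval runs from -0.98 to 0.91.

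The 3 low editors together can be set against the classical chains. Reads of H2-Oa, H2-Ob and H2-DMb2 made up 1.48% of the reads of H2-Aa, H2-Ab1 and H2-Eb1 in the vehicle library and 2.24% in the entacapone library, a change by a factor of 1.51 (1.21 to 1.88). These 3 genes were put together after their values were seen, so this is a description. H2-O is known mainly from B cells. Of 8 B cell markers, 6 were within counting error, 1 was higher and 1, Ighm, was lower, at 850 and 582 CPM. H2-DMb1 and H2-DMb2 share 13.5% and 10.1% of their 101-base windows with each other's or another gene's transcripts, and the reads of H2-DMb2 per read of H2-DMb1 went from 0.0885 to 0.153.

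Class II chain genes together were at 955 CPM with vehicle and 622 CPM with entacapone, a ratio of 0.652 (0.634 to 0.670). Of the 8 measured, 5 were lower, 0 higher and 3 within counting error, with a median log2 ratio of -0.57. The classes can be compared inside each library, without any scaling. Class II chain reads were 15.7% of class I heavy chain reads in the vehicle and 12.7% in the entacapone library, a change by a factor of 0.813 (0.789 to 0.838). With the classical genes alone (H2-Aa, H2-Ab1 and H2-Eb1 against H2-K1 and H2-D1) the factor was 0.824 (0.799 to 0.850).

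**Figure D3:**
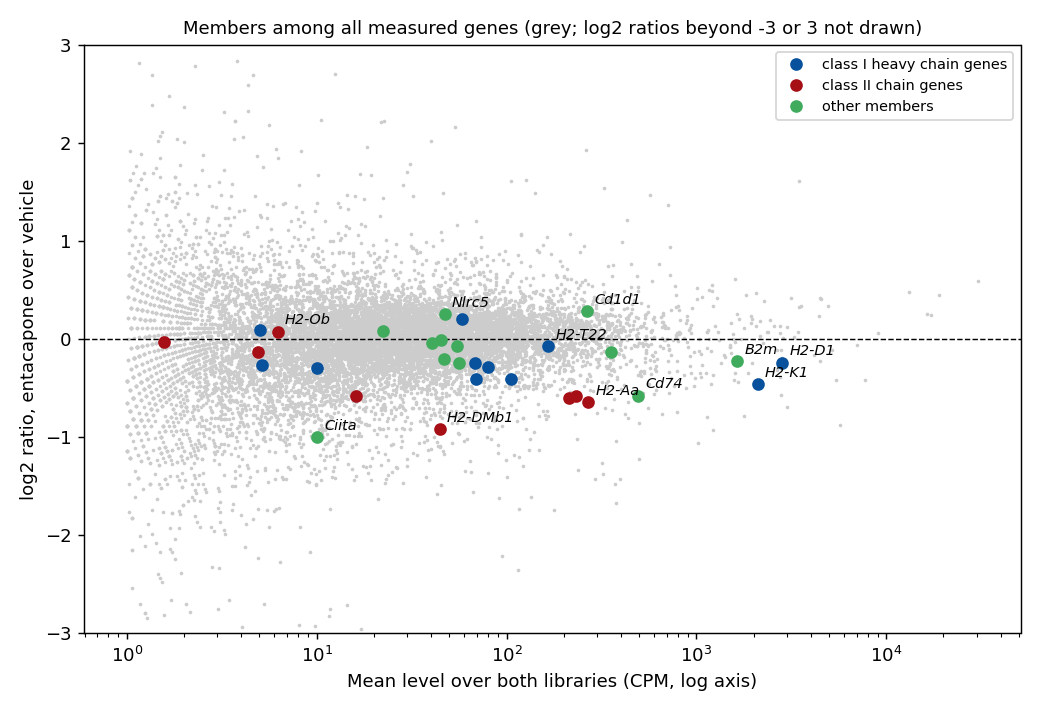
Log2 ratio of the entacapone over the vehicle library against mean level in CPM (log axis) for all measured genes (grey; log2 ratios beyond -3 or 3 are not drawn), with class I heavy chain genes in blue, class II chain genes in red and the other members in green. H2-Aa lies at a log2 ratio of -0.64 and H2-DMb1 at -0.92, whereas H2-D1, H2-K1 and B2m lie at the right with smaller differences.

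The transactivators went apart. Ciita (16:10480059-10528418), the master coactivator of class II genes, was at 13.5 CPM with vehicle and 6.72 CPM with entacapone, a ratio of 0.499 (0.382 to 0.648) and the lowest of any measured member. Nlrc5 (8:94434356-94527272), a related protein that acts on class I genes, was higher, at 43.1 and 51.5 CPM, a ratio of 1.19 (1.07 to 1.33). The reads of Nlrc5 per read of Ciita went from 3.20 to 7.66, a change by a factor of 2.39 (1.80 to 3.20). Relative to the reads of H2-Aa, H2-Ab1 and H2-Eb1, those of Ciita changed by a factor of 0.763, with an interval (0.583 to 0.992) that comes close to 1.

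Both transactivators act through DNA-bound RFX and NF-Y complexes. Of 7 genes of these complexes, the partner Creb1 included, 1 was lower (Nfya, log2 ratio -0.25), 0 were higher and 6 were within counting error, with a median of -0.16. Rfx5 stood at -0.22, Rfxank at 0.01 and Rfxap at 0.21, all within counting error. The interferon gamma pathway, which induces both transactivators, was split: of 9 measured genes, 3 were higher, 3 lower and 3 within counting error, with a median log2 ratio of -0.06. Irf8 (-0.53) was the lowest, and Irf2 (0.68) and the receptor chain Ifngr1 (0.48) the highest. Ifng itself had 3 reads in each library, too few to compare. For both lists, the shares of all measured genes were 21.1% lower and 20.2% higher.

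Cd1d1, which presents lipids to natural killer T cells and is known from adipocytes, was higher in the entacapone library. It (3:86995834-86999441) was at 239 CPM with vehicle and 291 CPM with entacapone, a ratio of 1.22 (1.16 to 1.27). Per kilobase it stood at 123 and 149.6 CPM per kb, above H2-Eb1 in the entacapone library (94.5 CPM per kb) and below it in the vehicle library (144 CPM per kb). Of its 101-base windows, 13.7% also occur in Cd1d2, which had 2 and 1 reads. Of 5 other measured genes with an MHC-like fold, 3 were lower, 1 was higher and 1 was within counting error. Azgp1, a secreted lipid-mobilising protein, had the lowest log2 ratio (-3.28, from 63 and 6 reads), followed by Procr, a receptor on endothelium (-0.37). The 8 hepatocyte markers, all lower, had a median log2 ratio of -2.89, and the part of liver RNA in the Azgp1 reads was not tested. Fcgrt, the neonatal Fc receptor, stood at 0.00, and Mr1, which presents vitamin metabolites to T cells, was higher (0.42).

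Most of the genes listed for class II processing in endosomes were lower along with the chains. The list includes the ligases March1 and March8 and the protease inhibitor Cst3, which are not proteases. Of 9 measured, 7 were lower and 0 higher, with a median log2 ratio of -0.57. Ctss, the protease that makes the last cuts in the invariant chain, was at 112 CPM with vehicle and 54.9 CPM with entacapone (log2 ratio -1.02). March1, a ligase that removes class II from the surface, stood at -0.92, and its relative March8 at 0.06. Cst3, a secreted inhibitor of such proteases, stood at -0.02. Several of these proteases act in the lysosomes of every cell. Costimulators and checkpoint ligands, which antigen-presenting cells show beside MHC, were also lower: of 6 measured, 4 were lower and 0 higher, with a median of -0.77. Cd274, known as PD-L1, stood at -1.29 and Cd40 at -1.13, while Icosl (-0.15) and Cd80 (-0.30) were within counting error.

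Macrophage markers differed between the libraries in the same direction as class II, and dendritic cell markers were mixed. Of 13 macrophage markers, 12 were lower and 1, Mertk, was higher (log2 ratio 1.01), none was at 0, and their summed level was 1712 CPM with vehicle and 911 CPM with entacapone, a ratio of 0.532 (0.520 to 0.544). Of 10 dendritic cell markers, 8 were measured, of which 4 were lower, 1 higher and 3 within counting error, with a summed level of 158 and 102 CPM and a ratio of 0.647 (0.603 to 0.693). Clec10a and Itgax, both also found on macrophages, hold most of these reads, and without them the dendritic cell ratio was 0.918, with an interval that includes 1 (0.812 to 1.04; an alternative chosen after seeing the data). Of the 569 and 484 reads then left, Zbtb46, used as a marker of classical dendritic cells, held 292 and 279. Ccr7 held 21 and 64, whereas Cd209a held 96 and 44 and Flt3 48 and 21. The ratio of 0.918 thus rests largely on Zbtb46. Whether the reads of Zbtb46 and Ccr7 came from dendritic cells was not tested. Flt3 and Cd209a were lower, at log2 ratios of -1.08 and -1.02, as was Itgax at -0.88. Zbtb46 stood at 0.04, within counting error, and Ccr7, the homing receptor of migrating dendritic cells, was higher, at 1.72. The class II ratio of 0.652 lay above the macrophage ratio. Per macrophage marker read, class II chain reads went from 0.558 to 0.683, a change by a factor of 1.23 (1.18 to 1.27), and class I heavy chain reads from 3.56 to 5.37, a change by a factor of 1.51 (1.47 to 1.54). The part of these cells in the levels of the MHC genes was not tested.

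T cells are the cells that read these molecules. Of 10 T cell markers, 1 was higher, 0 were lower and 9 were within counting error, each with few reads. Their summed level was 23.0 and 32.3 CPM (318 and 414 reads), a ratio of 1.41 (1.21 to 1.63), so the sum was higher. Of 6 natural killer cell markers, 3 were measured, of which 1 was lower (Nkg7, log2 ratio -1.56) and 2 were within counting error. The 6 together were at 9.12 and 5.24 CPM (126 and 67 reads), a ratio of 0.574 (0.420 to 0.778). Endothelial cells also carry abundant class I. Of 8 endothelial markers, 4 were higher and 2 lower, with a summed level of 1028 and 1052 CPM. The summed level of the 7 adipocyte markers was 35106 CPM with vehicle and 36203 CPM with entacapone.

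**Figure D4:**
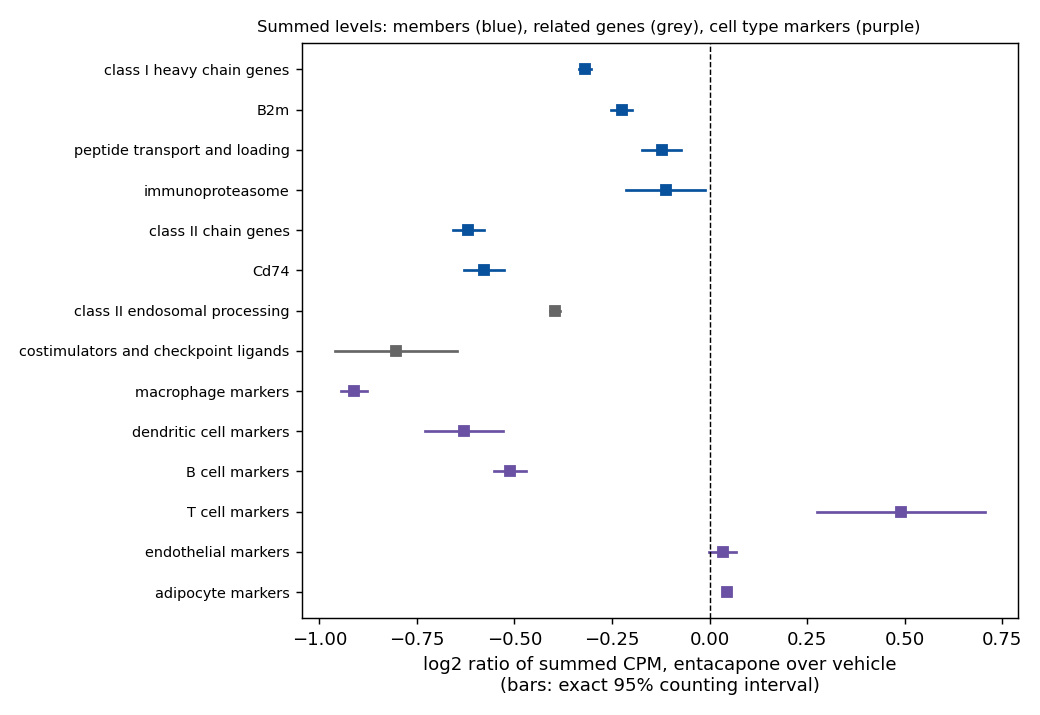
Log2 ratio of summed CPM, entacapone over vehicle, for groups of antigen presentation genes (blue), related genes (grey) and cell type markers (purple), with exact 95% counting intervals as bars. Class II chain genes and Cd74 lie to the left of the class I heavy chain genes, and macrophage markers lie further to the left than either. Hepatocyte, epithelial, skeletal muscle and natural killer cell markers are not drawn.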

How the data were processed

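RNA of inguinal white fat was extracted with TRIzol, poly(A) RNA was purified with Dynabeads, and TruSeq RNA v2 libraries, which do not mark the strand, were sequenced as 101-base reads, per the labels' protocols. For each library the authors deposited raw counts of reads by Ensembl identifier. The submitters' processing notes name TopHat2 2.1.1, HTSeq 0.6.0 and mm10. The sources used do not give the annotation release or the handling of multi-mapped reads. Identifiers were matched to GENCODE M21 (35449 of 37315 genes), on GRCm38, the assembly of mm10.

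CPM was computed with TMM factors from edgeR 4.0.16 (R 4.3.3), 1.01 for vehicle and 0.986 for entacapone. With 1 library per group no test was run. The interval of a ratio was taken from the exact binomial interval (Clopper-Pearson) of the share of reads from the entacapone library, and the interval of a ratio between genes within a library is the exact conditional one. They cover counting error only, and reads carry no molecular identifiers. At 100 reads in each library its bounds lie a factor of 1.33 from the ratio, at 1000 reads 1.09. A gene was measured at a mean of 1 CPM or more. Medians of log2 ratios used a pseudocount of 0.5 CPM. Exon length was the merged length of protein-coding transcripts. The intervals were tested on simulated counts with counting error alone, so that test does not bear on variation between mice or libraries.

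The members, the gene lists and the rules were chosen with earlier results of these data known. Cell type markers were named by what they define or by their ratios, after their values were seen. Every measured member was named, and of each related list the 2 highest and 2 lowest genes. A gene that this rule took is not reported here. Promoter sequences are from RefSeq (GRCm38.p6). Alternatives were total counts, DESeq2 1.42.0 size factors and upper-quartile scaling, other limits and pseudocounts, and leaving out genes that share sequence.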

Additional observations from a re-analysis of the deposited data

How the results depend on the processing

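Both classes stayed lower in the entacapone library under every alternative tried, and no result reversed. The class I summed ratio of 0.801 became 0.779 with total counts and 0.791 with DESeq2 size factors, both outside its counting interval, and was 0.869 over the non-classical genes alone. The number of lower members, 17, became 4 at 1.5-fold or more and 1 at 2-fold or more, and the number of higher members, 3, became 0 at either limit, so most calls rest on differences smaller than 1.5-fold. Over the other settings the number of lower members ran from 12, without the 10 measured members that share over 10 percent of their sequence windows (an alternative chosen after seeing the data), to 18, with total counts or DESeq2 size factors, where H2-T22 was added. The class II median log2 ratio ran from -0.61 to -0.42 and that of class I from -0.29 to -0.21. The sign of Tap2 turned under upper-quartile scaling, at a log2 ratio of 0.00. The scalings moved the median of all measured genes to between -0.03 and 0.02. No paired analysis was possible because each group holds 1 library, and for the same reason no library could be left out. Depth limits H2-Oa, H2-Ob, H2-DMb2, H2-M3, H2-M9 and H2-T24 most.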

Other observations

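Genes with the H2- prefix that are annotated as pseudogenes, and so fall outside the 46, also held reads. H2-Q5, a pseudogene in some strains only, had 203 reads in the vehicle and 157 in the entacapone library (log2 ratio -0.26). H2-T10, a near copy of H2-T22, had 117 and 92 reads (log2 ratio -0.24), and H2-K2 had 93 and 80 reads (log2 ratio -0.11). All 3 were within counting error. H2-Ea-ps, the alpha chain gene of I-E that is defective in C57BL/6 mice, had 0 reads in both libraries, whereas its partner H2-Eb1 was at 258 and 169.7 CPM.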
